A study of Rattus norvegicus with 22 samples.

Results

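The activator protein 1 (AP-1) transcription factors were followed in bulk RNA-seq of the rat hippocampus after traumatic brain injury (TBI). The genes taken were the Fos family (Fos, Fosb, Fosl1, Fosl2), the Jun family (Jun, Junb, Jund) and Atf3, which are 8 of the 17172 genes counted. All 8 passed the low-count filter and are among the 12875 genes tested. Adult male Sprague-Dawley rats received either lateral fluid percussion (LFP), a pulse of fluid onto the exposed dura, or sham surgery, which had the same anesthesia and craniectomy without the pulse. The ipsilateral hippocampus was collected from 2 sham and 4 TBI rats at day 1 and from 4 sham and 4 TBI rats at day 14. Since every sham rat was operated on, neither sham group stands for an unoperated animal.

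AP-1 is a pair of basic leucine zipper (bZIP) proteins that binds DNA as a dimer. Jun proteins pair with themselves, with Fos proteins or with Atf3, whereas Fos proteins need another bZIP partner, such as a Jun protein. Fos and Junb are classical immediate early genes, switched on within minutes of synaptic activity, calcium entry or growth factor signals, and Atf3 is a widely used marker of injured neurons.

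The promoters are shown first for Fosl1 and Junb, which rose at day 1, and for Jund, which did not pass the test. They are RefSeq sequences of build GRCr8, from 250 bases before to 50 bases after the start of each gene. Fosl1 lies at chr1:212183635-212183934 on the plus strand, Junb at chr19:40080876-40081175 on the plus strand and Jund at chr16:18769722-18770021 on the minus strand, each printed 5′ to 3′ along its gene. Capitals mark the single motif found.
Fosl1: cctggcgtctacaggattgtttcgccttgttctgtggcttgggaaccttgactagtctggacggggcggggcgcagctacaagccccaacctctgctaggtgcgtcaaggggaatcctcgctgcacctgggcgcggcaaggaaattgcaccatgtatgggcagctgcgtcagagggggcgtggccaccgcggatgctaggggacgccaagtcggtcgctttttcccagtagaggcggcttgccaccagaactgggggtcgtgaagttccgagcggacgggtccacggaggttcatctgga
Junb: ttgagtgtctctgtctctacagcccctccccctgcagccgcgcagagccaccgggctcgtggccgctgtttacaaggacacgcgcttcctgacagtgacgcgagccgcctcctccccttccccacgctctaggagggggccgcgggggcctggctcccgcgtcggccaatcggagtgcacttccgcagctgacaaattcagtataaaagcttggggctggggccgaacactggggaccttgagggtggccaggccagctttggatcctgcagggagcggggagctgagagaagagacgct
Jund: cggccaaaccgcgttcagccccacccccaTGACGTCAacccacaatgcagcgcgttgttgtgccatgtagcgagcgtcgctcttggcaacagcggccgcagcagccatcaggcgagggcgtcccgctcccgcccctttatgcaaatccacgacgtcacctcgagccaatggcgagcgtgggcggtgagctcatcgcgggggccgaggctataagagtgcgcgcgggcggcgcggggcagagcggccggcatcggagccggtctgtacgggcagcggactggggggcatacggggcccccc
The table of promoters held 5 of the 8 genes (Fosb, Fosl1, Fosl2, Junb and Jund), and Fos, Jun and Atf3 were not matched. Both strands were searched for the AP-1 site TGANTCA, the cyclic AMP response element TGACGTCA, the STAT site TTCNNNGAA and the CArG box, which serum response factor binds. Jund carried TGACGTCA from 221 to 214 bases before its start, and none of the other 4 promoters held any of the 4 motifs. Among 33469 promoters of the same length, 7.33% held the AP-1 site, 1.83% the cyclic AMP response element, 8.87% the STAT site and 1.64% the CArG box, and no motif overlapped another in Jund. A match is a stretch of letters and not a measured binding site. The GC content was 47.7% in Fosb and ran up to 70.7% in Fosl2, against a median of 51.7% over all promoters.

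Total counts ranged from 15065540 to 23743703 per rat. Neuronal markers were present throughout, with a summed level of 2348 to 6771 CPM (counts scaled to a common library size, as cpm in edgeR gives them) over 8 of 8 genes. Choroid plexus markers set 3 libraries apart: the summed level of the 18 markers, of which Otx2 was at 0, was 11394 CPM in sham day 1 replicate 1, 8867 in TBI day 14 replicate 3 and 2126 in TBI day 14 replicate 2, against 156 to 266 in the other libraries. The first of these is in every comparison with sham day 1 and the other 2 are in every comparison with TBI day 14, so values without them are given beside the main results.

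At day 1, 4 of the 8 AP-1 genes rose after TBI and none fell. These were Atf3, Fosl1, Fos and Junb, while Jun, Jund, Fosb and Fosl2 did not pass the test. Over all genes tested, 11.2% rose at day 1 and 7.93% fell (edgeR quasi-likelihood, adjusted p under 0.05). In the 4 genes that rose, every TBI rat was above both sham rats, a pattern seen in 16.7% of all genes, and in the other 4 genes the groups overlapped. No AP-1 gene was lower at an unadjusted p under 0.05 with edgeR, and limma-voom and DESeq2 each called 0 as lower. The median log2 fold change of the 8 genes was 0.65, beside -0.02 over all genes. All changes are in bulk tissue, in which fewer cells of a type and less RNA per cell cannot be told apart.

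**Figure D1:**
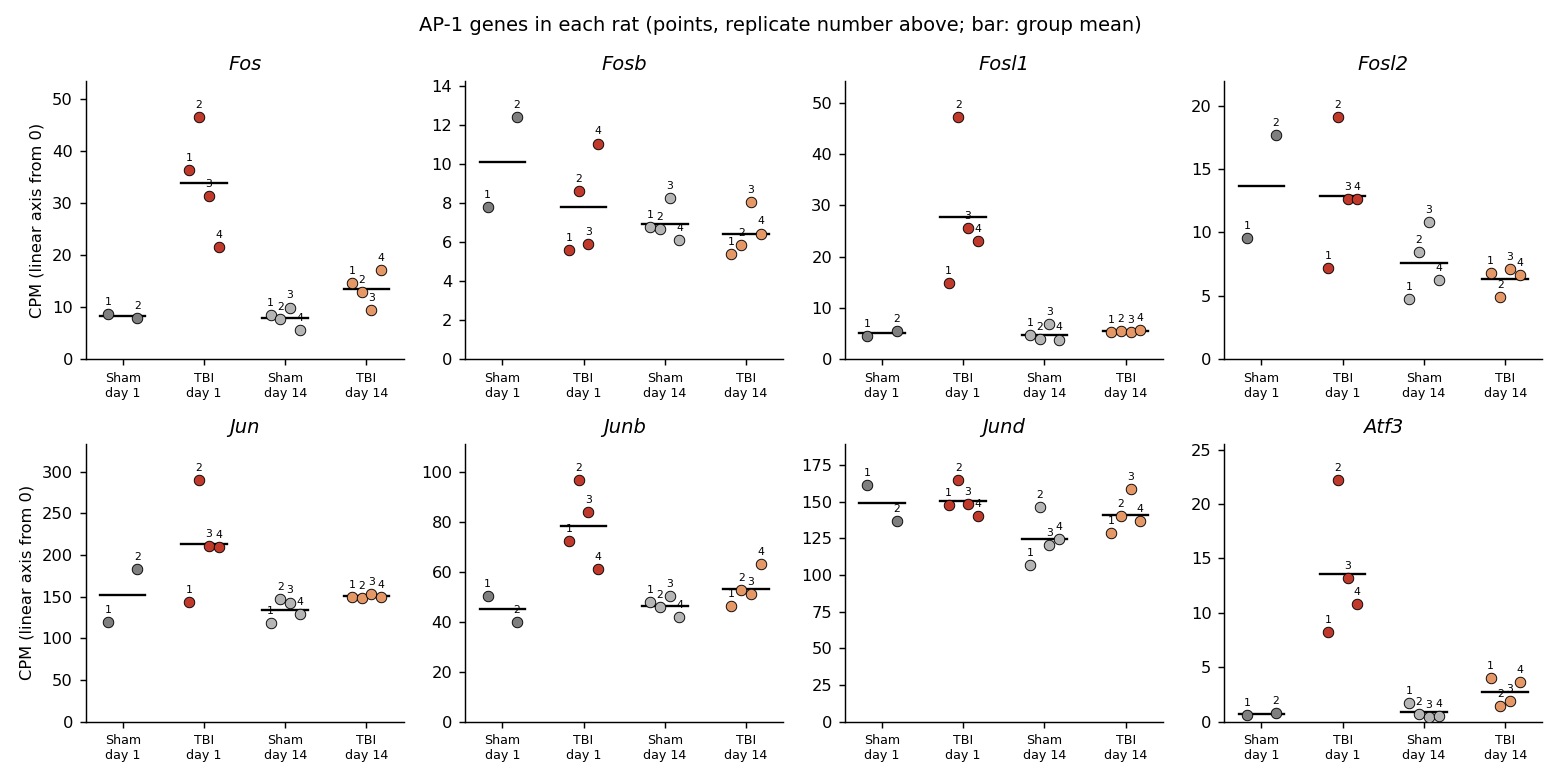
Level of each AP-1 gene (CPM, linear axis from 0) in each of the 14 rats. Points are rats with their replicate number and the horizontal bar is the group mean. In TBI day 1, Fos spans 21.4 to 46.4 CPM, Fosl1 14.9 to 47.2 and Atf3 8.25 to 22.2, above all rats of the other 3 groups, whereas Jund keeps within 107 to 165 CPM in all rats.

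Fos, the archetype of the immediate early genes, was at 8.68 and 7.88 CPM in the sham day 1 rats and at 36.3, 46.4, 31.3 and 21.4 CPM in the TBI day 1 rats. Even the lowest TBI rat was therefore well above both shams. The mean level was 33.9 ± 10.4 CPM after TBI (SD, n = 4) and 8.28 ± 0.56 CPM in sham (SD, n = 2). The log2 fold change was 2.03 with a standard error (SE) of 0.32, a 4.09-fold rise (adjusted p = 6e-04, edgeR). The rise was 2.10 without sham day 1 replicate 1, the library with choroid plexus markers (adjusted p = 0.00506, edgeR).

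Fosl1, which encodes Fra-1, a Fos protein without the transactivation domain of c-Fos, was at 4.53 and 5.53 CPM in sham day 1. The TBI day 1 rats had 14.9, 47.2, 25.5 and 23.1 CPM. Replicate 2 stood at 3.17 times replicate 1, the widest span of any AP-1 gene in that group, yet the lowest TBI rat was still above both shams. Fosl1 rose by a log2 fold change of 2.46 ± 0.39 (SE), or 5.49-fold (adjusted p = 0.00065, edgeR), and by 2.32 without sham day 1 replicate 1 (adjusted p = 0.00804, edgeR).

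Fosb and Fosl2 did not pass the test. Fosb, whose splice form ΔFosB is known for building up with repeated activity, was at 7.81 and 12.4 CPM in sham and at 5.60, 8.61, 5.91 and 11.1 CPM after TBI. Its log2 fold change was -0.37, with a 95% interval of -0.97 to 0.23 (adjusted p = 0.37, edgeR), and it was -0.67 on leaving out sham day 1 replicate 1 and -0.0022 on leaving out replicate 2 (adjusted p = 0.158 and 0.998). Fosl2, which encodes Fra-2, was at 9.54 and 17.7 CPM in sham and at 7.16, 19.1, 12.6 and 12.6 CPM after TBI. The sham rats thus spanned most of the TBI range in both genes. The log2 fold change of Fosl2 was -0.08 (interval -0.86 to 0.69, adjusted p = 0.897, edgeR), and its sign was not settled, being -0.46 with replicate 1 of the shams left out, 0.43 with replicate 2 of the shams left out and 0.12 with TBI day 1 replicate 1 left out.

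Among the Jun family, Junb rose. Junb, a Jun protein that can restrain c-Jun at some promoters, was at 50.3 and 39.7 CPM in sham day 1 and at 72.2, 96.7, 83.8 and 61.2 CPM after TBI. The groups did not overlap, although the gap between the highest sham and the lowest TBI rat was narrow. The log2 fold change was 0.80 ± 0.19 (SE), 1.74-fold (adjusted p = 0.00817, edgeR). Without sham day 1 replicate 2 it was 0.64 and no longer passed the test (adjusted p = 0.127, edgeR), and without replicate 1 it was 0.98 (adjusted p = 0.0119, edgeR).

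Jun, which encodes c-Jun, the substrate that gave the Jun N-terminal kinases their name, was at 119.8 and 183.1 CPM in sham. After TBI it was at 143.8, 290.0, 210.7 and 209.5 CPM. TBI replicate 1 lay between the shams and the other 3 TBI rats lay above them. Its log2 fold change was 0.49 (interval 0.02 to 0.97, adjusted p = 0.132, edgeR). It was 0.64 and passed the test without TBI day 1 replicate 1 (adjusted p = 0.0253, edgeR). Leaving out sham day 1 replicate 1 gave 0.22 and leaving out replicate 2 gave 0.83, neither of which passed (adjusted p = 0.568 and 0.089, edgeR).

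Jund, the Jun gene known for constant expression in resting cells, was at 162 and 137 CPM in sham and at 148, 165, 148 and 140 CPM after TBI. The 4 TBI rats spanned 1.18-fold, the narrowest span in that group. Its log2 fold change was 0.01 with an interval of -0.30 to 0.32 (adjusted p = 0.965, edgeR), which leaves room for a change of up to 1.25-fold. Leaving out sham day 1 replicate 1 or 2 gave 0.14 or -0.11 (adjusted p = 0.615 and 0.792, edgeR).

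Atf3, a bZIP factor of the stress response, had the largest change of the 8 genes. Only 11 and 17 reads were counted in the sham day 1 rats, against 159, 547, 287 and 242 in the TBI day 1 rats. In CPM this was 0.593 and 0.784 in sham and 8.25, 22.2, 13.2 and 10.8 after TBI, without overlap. The log2 fold change was 4.29 ± 0.63 (SE), 19.5-fold with an interval of 7.70 to 49.5 (adjusted p = 0.000339, edgeR). At these low sham counts the size of the fold is known less well than its direction. It was 4.11 without sham day 1 replicate 1 (adjusted p = 0.00507, edgeR). Of all genes tested, 0.839% had a larger log2 fold change than Atf3 at day 1, 2.91% a larger one than Fosl1, 4.16% than Fos and 12.7% than Junb.

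**Figure D2:**
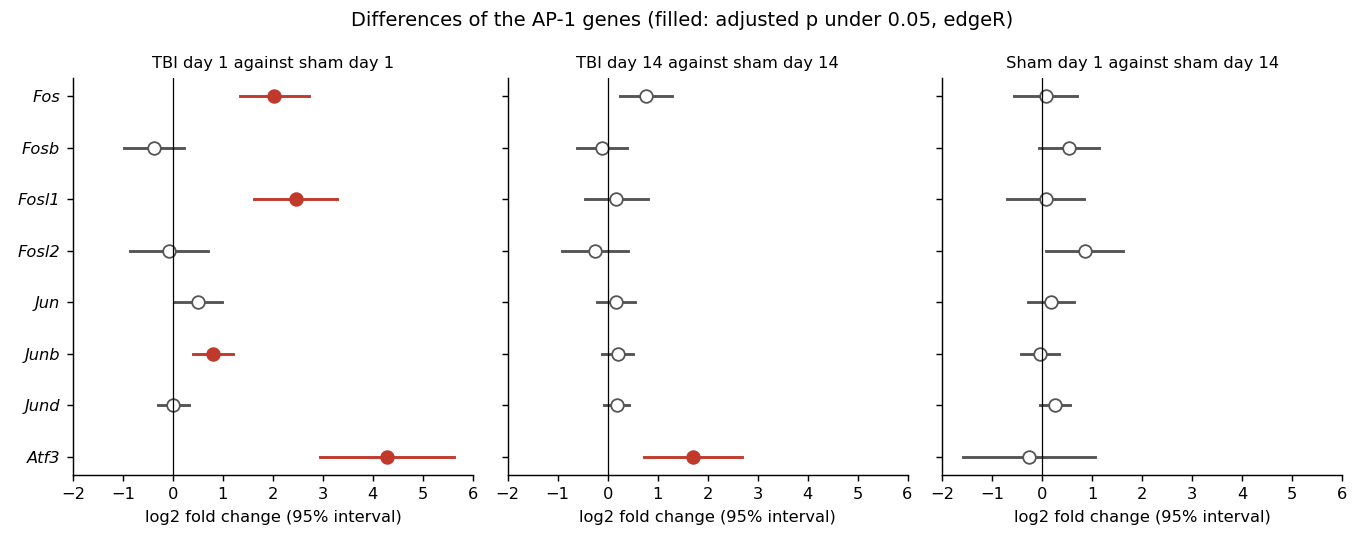
Log2 fold change of each AP-1 gene (points) with its 95% interval (lines) for TBI against sham at day 1, TBI against sham at day 14 and sham day 1 against sham day 14. Filled points have an adjusted p under 0.05 with edgeR: Fos, Fosl1, Junb and Atf3 at day 1, Atf3 at day 14 and none between the sham groups.

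At day 14, 1 of the 8 genes, Atf3, passed the test as higher after TBI and none as lower. Of all genes tested, 4.07% rose and 0.365% fell at this time point. The median log2 fold change of the 8 genes was 0.18, beside -0.03 over all genes. Atf3 was at 1.70, 0.721, 0.433 and 0.544 CPM in sham day 14 and at 3.98, 1.46, 1.94 and 3.64 CPM in TBI day 14. The groups overlapped through sham replicate 1, which was above the lowest TBI rat. The counts were small, 8 to 26 in sham and 25 to 69 after TBI. This gave a log2 fold change of 1.71 ± 0.46 (SE), 3.28-fold (adjusted p = 0.0486, edgeR), close to the threshold. The call was lost without any of sham day 14 replicates 2, 3 and 4 or TBI day 14 replicates 1 and 4, with values of 1.65, 1.49, 1.55, 1.49 and 1.54 (adjusted p = 0.149, 0.155, 0.162, 0.149 and 0.16, edgeR). Without TBI day 14 replicate 3 or 2, the rats with choroid plexus markers, it was 1.87 and 1.92 (adjusted p = 0.0416 and 0.0295, edgeR).

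Fos at day 14 was at 8.52, 7.63, 9.90 and 5.61 CPM in sham and at 14.6, 12.9, 9.39 and 17.1 CPM after TBI. Of the TBI rats, 3 were above all shams and replicate 3 fell among them. Its change on the log2 scale was 0.77 ± 0.24 (SE, interval 0.25 to 1.29), which did not pass after adjustment (unadjusted p = 0.00662, adjusted p = 0.113, edgeR). Without TBI day 14 replicate 3, one of the rats with choroid plexus markers, it was 0.92 and passed (adjusted p = 0.0499, edgeR). Without replicate 2 it was 0.79 (adjusted p = 0.177, edgeR).

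Fosl1 at day 14 lay between 5.24 and 5.70 CPM in the 4 TBI rats, inside the sham range of 3.81 to 6.76 CPM. Its log2 fold change was 0.18 (interval -0.46 to 0.81, adjusted p = 0.906, edgeR). Jun lay between 148.9 and 153.7 CPM after TBI and between 118.2 and 147.4 CPM in sham. The 4 TBI rats were thus all above the shams, as in 9.13% of all genes, but the log2 fold change was only 0.16 (interval -0.22 to 0.54, adjusted p = 0.833, edgeR). Junb was at 46.3 to 63.0 CPM after TBI and 41.7 to 50.2 CPM in sham (log2 fold change 0.20, interval -0.12 to 0.51), and Jund at 128 to 158 and 107 to 146 CPM (0.18, interval -0.07 to 0.43). Fosb was at 5.37 to 8.05 and 6.10 to 8.28 CPM (-0.11, interval -0.62 to 0.40), and Fosl2 at 4.86 to 7.10 and 4.72 to 10.8 CPM (-0.26, interval -0.92 to 0.40). The groups overlapped in these 4 genes, with adjusted p between 0.63 and 0.933 (edgeR). The signs of these 6 genes without TBI day 14 replicate 2 or 3 were those given here.

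Whether the effect of TBI differed between the days was tested as the day 1 change minus the day 14 change. By this test 2.24% of all genes had a higher signed change at day 1 than at day 14, and 1.44% a lower one. Fosl1 passed, with a difference of 2.28 ± 0.48 (SE) on the log2 scale (adjusted p = 0.0174, edgeR). This call was lost without sham day 1 replicate 1 (2.14, adjusted p = 0.0539, edgeR), with the choroid plexus score as covariate (2.21, adjusted p = 0.0756, edgeR) and with limma-voom (2.13, adjusted p = 0.0736). The differences of Atf3 and Fos were 2.57 (interval 0.98 to 4.17, adjusted p = 0.0708, edgeR) and 1.26 (interval 0.44 to 2.09, adjusted p = 0.0838, edgeR). Leaving out TBI day 1 replicate 1 added Atf3 to the calls, and leaving out TBI day 1 replicate 4 added Fos. The difference of Junb was 0.60 (interval 0.10 to 1.10, adjusted p = 0.17, edgeR), and those of Fosb, Fosl2, Jun and Jund were -0.27, 0.18, 0.33 and -0.17, none past the test. DESeq2 called the difference for Atf3 and Fos as well (adjusted p = 0.00866 and 0.0292), so for both it depends on the tool. Over all genes DESeq2 called 600 as higher by this test, in place of 288.

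None of the 8 genes passed between the sham groups (edgeR), whereas 11.3% of all genes were higher and 7.88% lower in sham day 1 than in sham day 14. At an unadjusted p under 0.05, which 34.7% of all genes met, there was 1, Fosl2, and limma-voom and DESeq2 each called 0. Fosl2 was at 4.72, 8.47, 10.8 and 6.26 CPM in sham day 14, and sham day 1 replicate 2 was above all of these. The log2 difference was 0.85 ± 0.36 (SE, unadjusted p = 0.0331, adjusted p = 0.111, edgeR). Leaving out sham day 1 replicate 1 raised it to 1.22, and leaving out replicate 2 lowered it to 0.33 (adjusted p = 0.0576 and 0.692, edgeR). Those of Fosb and Jund were 0.54 and 0.26, and became 0.84 and 0.13 on leaving out sham day 1 replicate 1 and 0.17 and 0.38 on leaving out replicate 2. Those of the other 5 genes lay between -0.27 and 0.17. In the same comparison 15 of 17 choroid plexus markers tested were higher in sham day 1, and their part in these differences was not tested.

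Against sham day 14, which is the baseline of the trajectories in the study, 5 genes were higher in TBI day 1 and none lower. Of all genes, 25.0% were higher and 21.0% lower in this comparison, which shares its TBI rats with the day 1 comparison and its shams with the day 14 one. The 5 genes were Fos with a log2 fold change of 2.10 (adjusted p = 1.18e-05), Fosl1 with 2.53 (1.22e-05), Junb with 0.76 (0.000783), Jun with 0.67 (0.0073) and Atf3 with 4.02 (9.82e-06), all adjusted p by edgeR. Fosl2 missed with 0.77 (adjusted p = 0.0514, edgeR) and passed without TBI day 1 replicate 1 (adjusted p = 0.0106) or sham day 14 replicate 3 (adjusted p = 0.0233). Fosl2 also passed with DESeq2, the replicate block, the choroid plexus covariate and the filter of at least 10 counts (adjusted p = 0.0387, 0.0306, 0.0458 and 0.0484). Jund gave 0.27 (adjusted p = 0.0725, edgeR), passing without sham day 14 replicate 2 (adjusted p = 0.031), and Fosb 0.17 (adjusted p = 0.589). Time after surgery and injury cannot be told apart here.

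Within TBI day 1 most AP-1 genes peaked in the same rat. Replicate 2 was the highest of the 4 rats for 7 of the 8 genes, the exception being Fosb, while it was the highest for 19.6% of all genes tested. Replicate 1 was the lowest for 5 of the 8 and for 38.2% of all genes tested. Fos, Fosl1 and Atf3 were higher in every TBI day 1 rat than in all 10 other rats, as in 8.26% of all genes. Junb missed this by little, since its lowest TBI day 1 rat was at 61.2 CPM and TBI day 14 replicate 4 at 63.0 CPM. At day 14 the span after TBI was 1.03-fold for Jun and 1.09-fold for Fosl1.

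**Figure D3:**
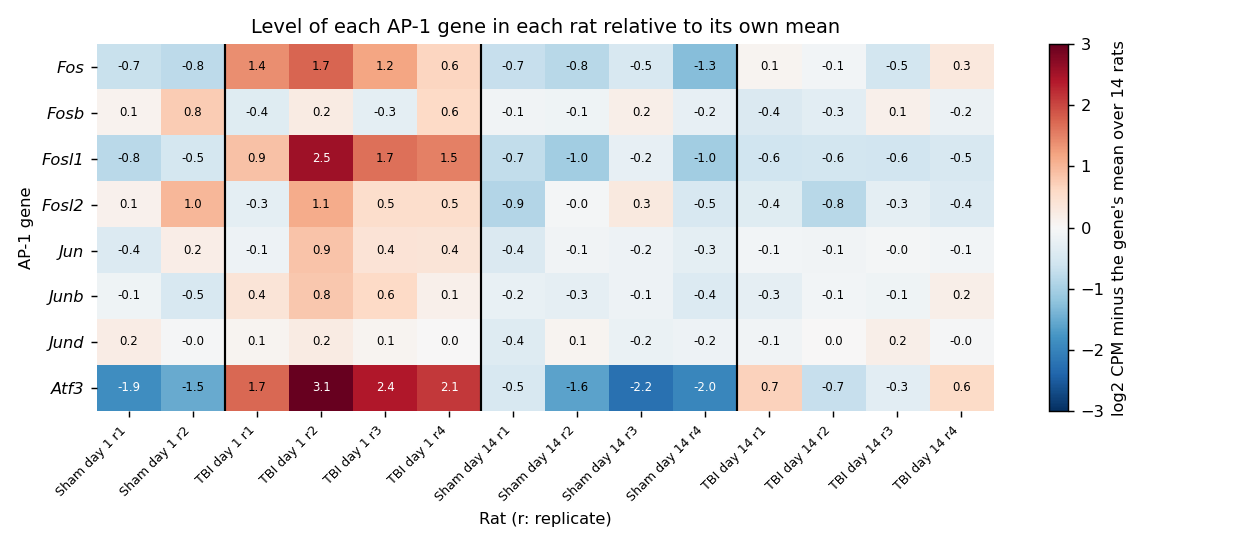
Log2 CPM of each AP-1 gene (rows) in each rat (columns, r for replicate) minus the mean of the gene over the 14 rats, with lines between the groups. Red is above and blue below the gene's mean. TBI day 1 replicate 2 has the highest value of its group for 7 of 8 genes, and Atf3 and Fosl1 carry the widest range of colors.

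The balance inside each family was compared within libraries as ratios of counts, in which depth cancels. At day 1 the ratio of Fos to Fosb counts was 0.636 and 1.11 for the shams and 1.94 to 6.47 after injury, with a median of 5.35. At day 14 it was 0.920 to 1.26 for the shams and 1.17 to 2.72 after injury. The ratio was thus above the sham rats of its day in all 4 TBI rats at day 1, with overlap at day 14. Fosl1 to Fosl2 at day 1 was 0.313 and 0.475 for the shams and 1.83 to 2.47 after injury. At day 14 the shams had 0.454 to 1.00 and the injured rats 0.748 to 1.11, so the counts of Fosl1 outnumbered those of Fosl2 in all 4 rats only in TBI day 1. For Junb to Jund the day 1 shams had 0.291 and 0.312 and the injured rats 0.437 to 0.587, and at day 14 the shams had 0.313 to 0.449 and the injured rats 0.322 to 0.462. Jun to Jund overlapped between TBI and sham at both days. So did Fosl1 to Fos, both of which rose at day 1, with 0.522 and 0.702 for the day 1 shams and 0.411 to 1.08 after injury. For Atf3 to Fos the day 1 shams had 0.0683 and 0.0994 and the injured rats 0.227 to 0.505, and at day 14 the shams had 0.0437 to 0.200 and the injured rats 0.114 to 0.273. Fos to Fosb, Fosl1 to Fosl2 and Junb to Jund each set a gene that rose at day 1 beside one that did not pass, so their day 1 shifts restate those results. These ratios are descriptions and were not tested.

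Levels can be ordered between genes only per length, which was done for the Jun family, whose genes have no introns. The RefSeq lengths of 3094 bases for Jun, 1785 for Junb and 1679 for Jund come from build GRCr8, not from the annotation used for counting. On this scale Jund was above Jun and Jun above Junb in all 14 libraries. In sham day 14 the mean levels were 74.2 ± 9.87, 43.4 ± 4.33 and 26.0 ± 2.00 CPM per kilobase (SD, n = 4), and the ranges of the 3 genes did not overlap. In TBI day 1 they were 89.5 ± 6.22, 69.0 ± 19.3 and 44.0 ± 8.55 CPM per kilobase (SD, n = 4), and each gene's range overlapped that of its neighbour in the order.

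The genes around AP-1 were read from 5 lists. The first holds 19 mitogen-activated protein (MAP) kinases and scaffolds of the ERK, JNK and p38 cascades, which phosphorylate AP-1 proteins and the factors upstream of them. Of 18 tested, none passed at day 1 or day 14 (edgeR), where 11.2% of all genes rose and 7.93% fell at day 1. At an unadjusted p under 0.05, 2 were higher and 3 lower at day 1, and 1 was higher and 1 lower at day 14. Of all genes, 34.4% met that threshold at day 1 and 13.3% at day 14. Limma-voom called 0 at both days, and DESeq2 called 2 as higher at day 1 and 0 at day 14. At day 1 the filter of at least 10 counts gave 2 as higher and the choroid plexus covariate 1. With only the groups compared, 1 was called higher and 1 lower at day 14, where 903 and 205 of 12231 genes were. Leaving out sham day 1 replicate 1, TBI day 1 replicate 1 or TBI day 1 replicate 4 brought 1 or 2 calls in each direction at day 1. Their median change on the log2 scale came to -0.18 on day 1 and to -0.10 on day 14.

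The second list holds 10 dual-specificity phosphatases, which switch MAP kinases off. Dusp4, a nuclear phosphatase, fell at day 1, where 7.93% of all genes fell. No other member passed at either day (at day 14, 0 at an unadjusted p under 0.05 and 0 by limma-voom or DESeq2). At day 1, 3 were lower and 0 higher at an unadjusted p under 0.05 (edgeR), which 34.4% of all genes met in either direction. Dusp4 was at 10.7 and 21.9 CPM in sham and at 1.82 to 7.65 CPM after TBI. It fell by 1.68 on the log2 scale (SE 0.38, adjusted p = 0.00685, edgeR). Without sham day 1 replicate 2 its change was -1.07 and did not pass (adjusted p = 0.186, edgeR). Without TBI day 1 replicate 2 the list held 2 calls.

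The third list holds other bZIP partners of Fos and Jun, with 16 of 17 tested. At day 1, 8 rose and none fell, beside 11.2% up and 7.93% down over all genes, with 1 lower at an unadjusted p under 0.05 (edgeR), 0 by limma-voom or DESeq2 and 1 without sham day 1 replicate 1. Their median log2 fold change was 0.57. Maff, a small Maf protein, was at 1.29 and 1.56 CPM in sham and at 18.4 to 34.4 CPM after TBI (log2 fold change 4.31 ± 0.36 SE, adjusted p = 5.63e-06, edgeR). Cebpd, an acute phase regulator, rose by 2.32 (adjusted p = 8.49e-06, edgeR). Atf5 rose by 0.81 (adjusted p = 0.0299, edgeR), a call that was lost without sham day 1 replicate 1, sham day 1 replicate 2 or TBI day 1 replicate 3 (adjusted p = 0.0891, 0.164 and 0.0522). Without sham day 1 replicate 2, which leaves a single sham rat at day 1, fewer members were called, and fewer genes were called over all genes as well. At day 14, beside 4.07% of all genes, 3 members rose, among them Cebpd by 0.93 (adjusted p = 0.00203, edgeR), and the median was 0.34.

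The fourth list holds factors that act on the Fos and Jun genes, with 11 of 15 tested. At day 1, 3 rose and none fell, beside the same 11.2% and 7.93% over all genes, with 0 lower at an unadjusted p under 0.05 (edgeR) and 0 by limma-voom or DESeq2. Stat3, the mediator of cytokine signals, was at 55.7 and 68.9 CPM in sham and at 234 to 379 CPM after TBI (log2 fold change 2.16 ± 0.21 SE, adjusted p = 1.21e-05, edgeR). Crem rose by 0.80 and Atf1 by 0.64, both factors of the cyclic AMP pathway (adjusted p = 0.00571 and 0.00675, edgeR). Without sham day 1 replicate 2 their changes were 0.80 and 0.58 and both missed the test. In that fit fewer genes were called over all genes as well. At day 14, where 4.07% of all genes rose, Stat3 rose by 0.63 and Elk3, a partner of serum response factor, by 0.59 (adjusted p = 0.0289 and 0.0363, edgeR). Both day 14 calls were lost on leaving out any sham day 14 rat or TBI day 14 replicate 1 or 4, with adjusted p up to 0.12 and 0.131. They were also lost with the replicate block (adjusted p = 0.0611 and 0.052, edgeR) and the choroid plexus covariate (adjusted p = 0.0711 and 0.118, edgeR), and that of Elk3 with limma-voom (adjusted p = 0.064). The medians of the list were 0.21 and 0.06.

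The last list holds 20 genes that textbooks name as AP-1 targets, of which 16 were tested. At day 1, 12 rose and 1 fell, beside 11.2% up and 7.93% down over all genes, and the median log2 fold change was 2.72. Timp1, an inhibitor of matrix metalloproteinases, was at 1.34 and 4.96 CPM in sham and at 224 to 288 CPM after TBI (log2 fold change 6.31 ± 0.48 SE, adjusted p = 2.46e-06, edgeR). Plaur, the urokinase receptor, rose by 5.31 (SE 0.80, adjusted p = 0.000417, edgeR) and Hmox1, which breaks down heme, by 3.74 (SE 0.35, adjusted p = 8.93e-06, edgeR). No sham day 1 library held more than 5 reads of Plaur, so the size of its change is known less well than its direction. Ccl2, a monocyte chemokine, was at 43.2 to 181 CPM after TBI, whereas no sham day 1 library held more than 3 of its reads, so no fold is given. Pdyn, which encodes the opioid precursor prodynorphin, fell by 1.93 (SE 0.60, adjusted p = 0.0377, edgeR), from 46.7 and 127 CPM in sham to 1.97 to 36.7 CPM. That call was lost without sham day 1 replicate 2 or TBI day 1 replicate 3 (adjusted p = 0.478 and 0.0756), and without the former the change was -1.03.

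At day 14, 5 of these targets rose and none fell, beside 4.07% up and 0.365% down over all genes, with a median of 0.83. At an unadjusted p under 0.05, 3 were lower (edgeR), and limma-voom and DESeq2 called 0 as lower. With only the groups compared, 1 was called lower (edgeR), as were 205 of 12231 genes. Plau, which encodes urokinase, rose by 2.52 (adjusted p = 0.000234, edgeR), Hmox1 by 1.95 (adjusted p = 0.000187, edgeR) and Cd44, a hyaluronan receptor, by 1.84 (adjusted p = 0.00104, edgeR). Plaur rose by 2.76 (adjusted p = 0.014, edgeR), and missed without sham day 14 replicate 3 or TBI day 14 replicate 4 (adjusted p = 0.0509 and 0.0619), as it did with limma-voom (adjusted p = 0.139). No sham day 14 library held more than 8 reads of Plaur. Without sham day 1 replicate 1, the day 1 changes were 4.44 for Maff, 2.33 for Cebpd, 2.32 for Stat3, 0.80 for Crem, 0.70 for Atf1, 7.52 for Timp1, 5.26 for Plaur, 4.06 for Hmox1, -2.11 for Dusp4 and -2.48 for Pdyn, each still past the test (edgeR). Without TBI day 14 replicate 2 or 3, the day 14 calls of Cebpd, Stat3, Elk3, Plau, Plaur, Cd44 and Hmox1 all passed. The lists were chosen with earlier results of these data known, so the counts describe them and are not a test of the lists.

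**Figure D4:**
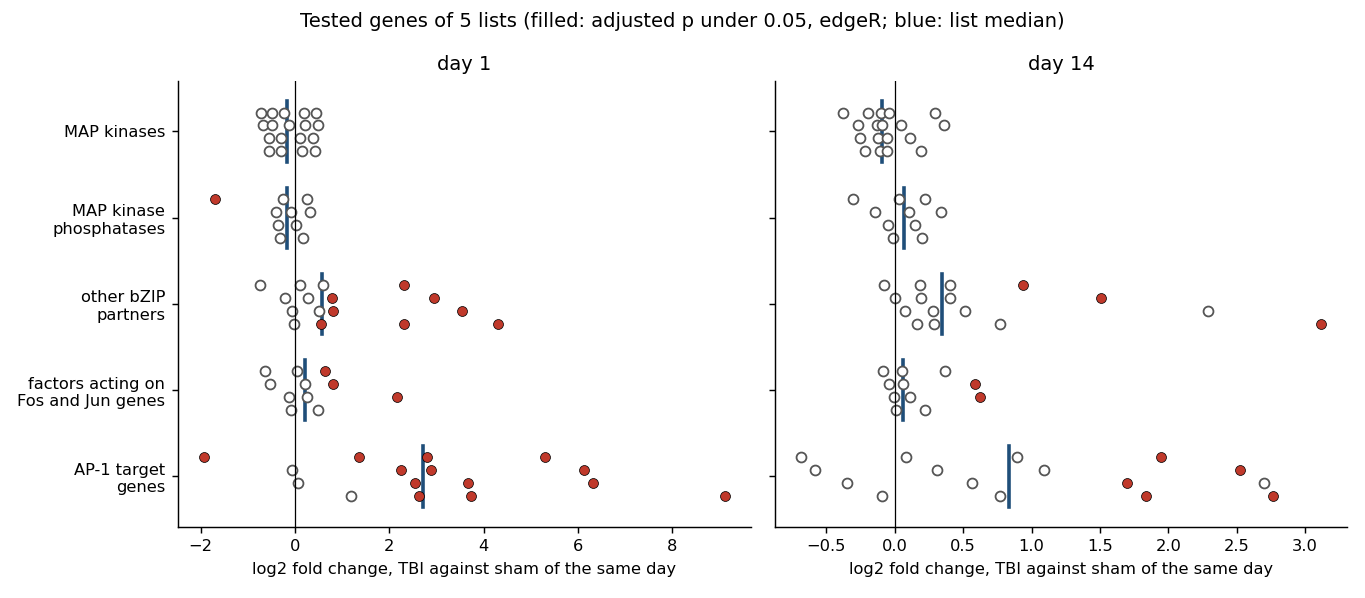
Log2 fold change of TBI against sham of the same day for the 71 tested genes of 5 lists around AP-1, at day 1 and day 14. Each point is a gene, filled where the adjusted p was under 0.05 with edgeR, and the blue line is the median of the list. The targets have a median of 2.72 at day 1 and the MAP kinases one of -0.18.

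The genes whose profile over the 14 rats lay closest to each AP-1 gene were found by the root mean square (RMS) difference of centered log2 CPM. For Fos these were Myd88 and PVR, each at 0.24, beside an RMS of 0.90 for Fos itself. For Fosl1 (RMS 1.11) they were Myc at 0.31 and Hbegf at 0.32. For Atf3 (RMS 1.73) they were Tfec at 0.48 and Il1b at 0.51. The profiles nearest to Junb (RMS 0.36) were those of Ddx54 at 0.12 and Ptma at 0.14, and nearest to Jun (RMS 0.34) those of Rars at 0.15 and Pprc1 at 0.16. Fosb (RMS 0.35) lay nearest to Tbl1xr1 and to a gene whose name had become a date, 5-Mar, each at 0.13. Fosl2 (RMS 0.60) lay nearest to Cited2 and Mapk1ip1l, each at 0.24, and Jund (RMS 0.17) to LOC100125367 at 0.098 and Rtfdc1 at 0.10. Between AP-1 genes the smallest difference was 0.28, for Jun and Junb, and the largest 1.79, for Fosb and Atf3. Genes that vary little lie close by this measure, and the 0.28 stands beside an RMS of 0.34 and 0.36. Fos and Fosl1 differed by 0.50, beside an RMS of 0.90 and 1.11.

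The summed levels of some marker sets differed between the groups, whereas choroid plexus markers stood out in single libraries. Choroid plexus markers were lower after TBI at day 1 in 13 of 17 tested, a comparison that holds sham day 1 replicate 1. Over all genes tested, 11.2% rose and 7.93% fell at day 1, and 4.07% rose and 0.365% fell at day 14. At day 1, 4 of 8 neuronal markers fell, with a summed level of 5571 to 5752 CPM in sham and 2348 to 4170 CPM after TBI. The summed level of the 8 microglial markers was 329 to 568 CPM in sham and 659 to 890 CPM after TBI, with 3 up and 2 down. At day 14 it was 396 to 496 and 912 to 1676 CPM, with 7 up. That of the leukocyte markers (8 of 9 in the table) was 3.23 to 13.8 and 46.9 to 81.7 CPM at day 1, with 3 of 6 tested up and Ms4a1 and Elane at 0 in sham, and 11.0 to 26.0 and 33.3 to 55.0 CPM at day 14, with 1 up and Elane at 0 in both groups. The 5 astrocyte markers summed to 4821 to 7842 and 11986 to 17920 CPM at day 1, and to 4337 to 5415 and 8009 to 11863 CPM at day 14, with 1 up at each day. The 4 red blood cell markers summed to 201 to 404 and 331 to 811 CPM at day 1 and to 71.2 to 187 and 72.3 to 114 CPM at day 14, none past the test. Those of meningeal fibroblasts, 5 in number, gave 26.7 to 128 and 61.4 to 189 CPM at day 1 with Col1a2 at 0, and 62.7 to 100 and 80.1 to 89.9 CPM at day 14, none past the test. The part of these cells in the AP-1 changes was not tested.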

How the data were processed

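RNA-seq libraries of 14 rats were analysed, in the 4 groups given by their labels. The authors made the counts from stranded mRNA libraries, with STAR 2.4.2a on build rn5 and featureCounts 1.5.0 on UCSC genes, per the labels and methods. Whether the counting used strand is not given in the sources used here. The deposited counts are whole numbers without normalization. Libraries ranged from 15065540 to 23743703 counts. H3K4me3 peak lists of the series were not used here.

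Counts were filtered with filterByExpr by group, scaled by TMM and tested with edgeR 4.0.16 (glmQLFit, glmQLFTest, R 4.3.3), with 1 mean per group over all 14 rats. Tests were two-sided, with Benjamini-Hochberg adjustment over 12875 genes at 0.05. CPM used TMM library sizes, and log2 CPM a prior count of 2. Sham day 1 holds 2 rats, so its spread is borrowed from the other groups. Alternatives were limma-voom (limma 3.58.1), DESeq2 1.42.0, median-of-ratios scaling, no filter, at least 10 counts in every library, a replicate block, only the groups compared, the choroid plexus score as covariate, and each rat left out.

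The 8 genes, 5 pathway lists and marker lists were chosen with earlier results of these data known. Beside the 8 genes, the text names at most the 4 genes of each list, direction and day with the largest change among those called, with a mean log2 CPM above 0 and groups that did not overlap, the 2 genes nearest in profile to each AP-1 gene, and marker genes at 0. Some genes that meet this rule are not reported here. Replicate libraries all differed beyond counting noise. The tests were checked on simulated data.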

Additional observations from a re-analysis of the deposited data

Results flagged for a closer look

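In the TBI day 14 group, Jun in replicate 3 was far from the other 3 rats relative to the range of the group, with a gap of 0.888 of that range on the log2 scale, above Dixon's 95% critical value for 4 samples. The group spanned only 1.03-fold, from 148.9 to 153.7 CPM. In all, 24 groups of 4 rats were examined in this way, and chance gives such a value in about 1 of 20.

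Fosl1 differed in its response to TBI between the days, with a day 1 effect larger than the day 14 effect by 2.28 on the log2 scale (SE 0.48, adjusted p = 0.0174, edgeR interaction test). The call was lost with limma-voom (adjusted p = 0.0736), with the choroid plexus covariate (adjusted p = 0.0756) and without sham day 1 replicate 1 (adjusted p = 0.0539). All 4 TBI rats were above both shams at day 1, and the groups overlapped at day 14.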

How the results depend on the processing

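Of 643 values of the 8 genes recomputed under the alternatives, 594 kept their direction and their side of the threshold, 12 were no longer called, 15 became called and 22 changed sign. The count called at day 14, which was 1, was 0 with limma-voom, 0 with at least 10 counts in every library (where Atf3 is not tested), 0 with the replicate block, 2 with DESeq2, 2 with only the groups compared and 0 to 2 with a rat left out. Over all genes, 524 were called higher at day 14 in the main fit, 439 with limma-voom and 475 with the replicate block. DESeq2 called 674 as higher, and the fit with only the groups compared 903 of 12231. The cause was not tested beyond the loss of Atf3 by the filter. Atf3 at day 14 was 1.76 with limma-voom (adjusted p = 0.192) and 1.75 with the replicate block (adjusted p = 0.0799), and Fos was 0.77 with DESeq2 (adjusted p = 0.0475) and 0.80 with only the groups compared (adjusted p = 0.0348, edgeR). The count called for the difference between days, which was 1, was 0 with limma-voom, 0 with the choroid plexus covariate and 3 with DESeq2. Over all genes, 288 were called higher in the main fit, 178 with limma-voom, 139 with the covariate and 600 with DESeq2. The count was 2 without TBI day 1 replicate 1 or without TBI day 1 replicate 4, and Fosl1 was lost without sham day 1 replicate 1. At day 1 the count of 4 ranged from 3 to 5, Junb being lost with only the groups compared (adjusted p = 0.0942, edgeR). The 26 list genes called at either day became 17 to 30 with a rat left out, the lowest without sham day 1 replicate 2.

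Small differences changed sign. Between the shams, Fos was -0.064 with the replicate block and Atf3 0.10 with the covariate. For the difference between days, Fosl2 was -0.00028 with the block and -0.090 with the covariate, and Jund 0.021 with the covariate. With a rat left out, the ranges that crossed 0 were -0.46 to 0.43 for Fosl2 and -0.11 to 0.14 for Jund at day 1, -0.048 to 0.30 for Fosb in TBI day 1 against sham day 14, and, for the difference between days, -0.56 to 0.11 for Fosb and -0.20 to 0.69 for Fosl2. Between the shams they were -0.070 to 0.19 for Fos, -0.081 to 0.29 for Fosl1, -0.17 to 0.45 for Jun, -0.22 to 0.12 for Junb and -0.49 to 0.29 for Atf3.

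The labels link same-numbered rats by the number alone, and whether such rats shared a batch was not tested. At day 14 the correlations of their deviations were -0.04, 0.13, 0.24 and 0.12, with 2 of 4 rats closest to their own number. At day 1 the correlations were 0.13 and 0.07. With the block, 6 AP-1 genes were called in TBI day 1 against sham day 14 in place of 5, Fosl2 being added. The 2 sham rats of day 1 and the low counts of Atf3 limit the precision. Without sham day 1 replicate 2 a single sham rat is left at day 1. That fit, in which Junb, Dusp4, Crem, Atf1 and Pdyn lost their calls, called fewer genes at day 1 over all genes too. Of the list genes named, Dusp4, Atf5, Crem, Atf1 and Pdyn lost their day 1 calls with only the groups compared (adjusted p = 0.0914, 0.132, 0.0705, 0.103 and 0.207, edgeR), and Atf5 with the covariate (adjusted p = 0.0737). With only the groups compared, 557 genes were called higher and 94 lower at day 1 over all genes, in place of 1437 and 1021.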
